A study of Mus musculus with 12 samples.

Results

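Male mice that lack Akp3 were compared with wild-type mice after both had received only the vehicle, in the jejunum, by microarray. The comparison takes the samples whose titles name the control at 0 mg/kg of IIAEK, which are 3 knockout arrays and 3 wild-type arrays of the 12 arrays in the series. The knockout mice were Akp3-/- and are called IAP knockout in the labels, after intestinal alkaline phosphatase. Mice of both genotypes were 7 weeks old at the start and were given carboxymethylcellulose sodium salt at 5 g/L by mouth once a day for 14 days. The jejunum was taken after 8 h of fasting, and the labels describe 3 samples per group, with nothing on pooling. They give neither the background strain nor the way the allele was made, nor whether the wild-type mice were littermates. The other 6 arrays hold the same genotypes given the pentapeptide IIAEK, named by its letters for the amino acids, at 600 mg/kg body weight. They serve here to estimate the spread and, with the vehicle arrays, to choose the genes tested and the probe of each. They also measure each gene a second time, on arrays whose values do not enter the vehicle difference.

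Alkaline phosphatases remove phosphate groups from many substrates at alkaline pH. In the gut they are anchored in the brush border of enterocytes, the absorptive cells of the villus, and are released into the lumen. The intestinal enzymes are known for dephosphorylating bacterial lipopolysaccharide and luminal nucleotides and for a role in fat absorption. In the mouse, Akp3 encodes the form that is most abundant in the duodenum, Alpi a form made along the whole small intestine, and Alppl2 a form first described in the embryo, while Alpl encodes the tissue-nonspecific enzyme of bone, liver and kidney.

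Akp3, Alpi and Alppl2 lie side by side on chromosome 1. Their upstream sequences are shown because the 3 genes are close relatives in a single cluster and only Akp3 is the target of the knockout. The 250 bases before each start site are given as RefSeq has them (GRCm38.p6), 5′ to 3′ on the strand of the gene, at chr1:87089929-87090178 on the minus strand for Alppl2, chr1:87101607-87101856 on the minus strand for Alpi and chr1:87124704-87124953 on the plus strand for Akp3.
Alppl2: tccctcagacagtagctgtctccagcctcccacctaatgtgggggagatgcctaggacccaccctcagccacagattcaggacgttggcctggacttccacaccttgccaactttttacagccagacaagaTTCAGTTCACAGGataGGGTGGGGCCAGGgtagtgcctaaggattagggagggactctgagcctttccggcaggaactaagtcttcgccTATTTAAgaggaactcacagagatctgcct
Alpi: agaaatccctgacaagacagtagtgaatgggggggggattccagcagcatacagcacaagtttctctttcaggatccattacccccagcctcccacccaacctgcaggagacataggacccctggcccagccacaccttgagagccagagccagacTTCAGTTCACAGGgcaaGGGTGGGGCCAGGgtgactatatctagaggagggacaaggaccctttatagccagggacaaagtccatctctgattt
Akp3: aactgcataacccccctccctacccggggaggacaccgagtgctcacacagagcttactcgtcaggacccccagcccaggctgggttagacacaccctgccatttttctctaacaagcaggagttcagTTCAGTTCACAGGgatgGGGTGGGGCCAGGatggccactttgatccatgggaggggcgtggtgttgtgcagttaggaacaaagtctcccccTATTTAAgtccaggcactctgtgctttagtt
Capitals mark the 2 longest runs of letters that all 3 windows share, TTCAGTTCACAGG and GGGTGGGGCCAGG, each 13 letters long, and the letters TATTTAA. Over the 250 bases before the start in 32851 promoter windows of the RefSeq table, and on either strand, TTCAGTTCACAGG stood in 9 windows (0.0274%) and GGGTGGGGCCAGG in 15 (0.0457%). Both runs occurred together in 3 windows, those of these genes. TATTTAA was present in 1374 windows (4.18%) and, of the 3 shown, in those of Akp3 and Alppl2, ending 24 and 23 bases before the start. No TATTTAA was found in the Alpi window. The matches describe the letters of the windows and were not tied to any measurement.

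A level below is log2 of the signal of a probe after scaling each array by its 75th percentile, so that 0 is the level of a fairly bright probe. Levels can be compared between arrays for 1 gene, and were not compared between genes. A difference is the knockout mean minus the wild-type mean on that scale, with the standard error (SE) of the limma fit, and adjusted p-values are Benjamini-Hochberg values over all 27565 genes tested. Values are given in the order of replicates 1, 2 and 3, an order that carries no meaning.

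Akp3 read near background in these jejunum samples and was lower on average in the knockouts, without passing the test. Its level was -3.81, -4.43 and -6.42 on the wild-type arrays and -7.32, -5.96 and -6.44 on the knockout arrays. The signal was well above background on wild-type replicates 1 and 2 and on no other vehicle array, so that the array labelled wild-type replicate 3 read like the knockouts and the groups overlapped. The difference was -1.69 (SE 0.78, adjusted p = 0.441), and no knockout array measured the gene. With each knockout array set to its lowest signal above background, Akp3 was 1.28-fold lower in the knockouts. The wild-type mean in that fold includes replicate 3, which did not measure the gene either, so 1.28 is no firm lower bound. Without the array labelled wild-type replicate 3 the difference was -2.45, and it was -2.83 within the first slide and -1.01 within the second. The arrays lay on 2 slides, and each holds one genotype as a single array (wild-type replicate 1 on the first, knockout replicate 3 on the second), so every value within a slide rests on that array. A second Akp3 probe, above background on none of the 6 vehicle arrays, gave -0.84. In mice given IIAEK the 3 wild-type arrays were above background and 0 of the 3 knockout arrays were, which gives at least 7.71-fold lower there (measured means -2.58 and -6.98, adjusted p = 0.390). Akp3 entered the test only through those wild-type arrays. The labels do not say which part of Akp3 is missing in the knockout, so it is not known whether either probe lies in it.

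The other alkaline phosphatases were measured on all 6 arrays. Alpi read 5.25, 5.31 and 4.68 in wild type and 5.06, 4.44 and 4.85 in knockout. Alppl2 read -2.94, -2.73 and -3.50 in wild type against -3.13, -3.60 and -3.29, and Alpl -4.75, -3.99 and -4.56 in wild type against -4.31, -3.93 and -3.71. The genotypes overlapped for each of these genes. The differences were -0.30 (SE 0.25, adjusted p = 0.622) for Alpi, -0.28 (SE 0.30, adjusted p = 0.705) for Alppl2 and 0.45 (SE 0.35, adjusted p = 0.595) for Alpl. In mice given IIAEK they were -1.15, -2.02 and 0.01. Cross-hybridisation between the closely related Akp3, Alpi and Alppl2 was not tested.

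**Figure D1:**
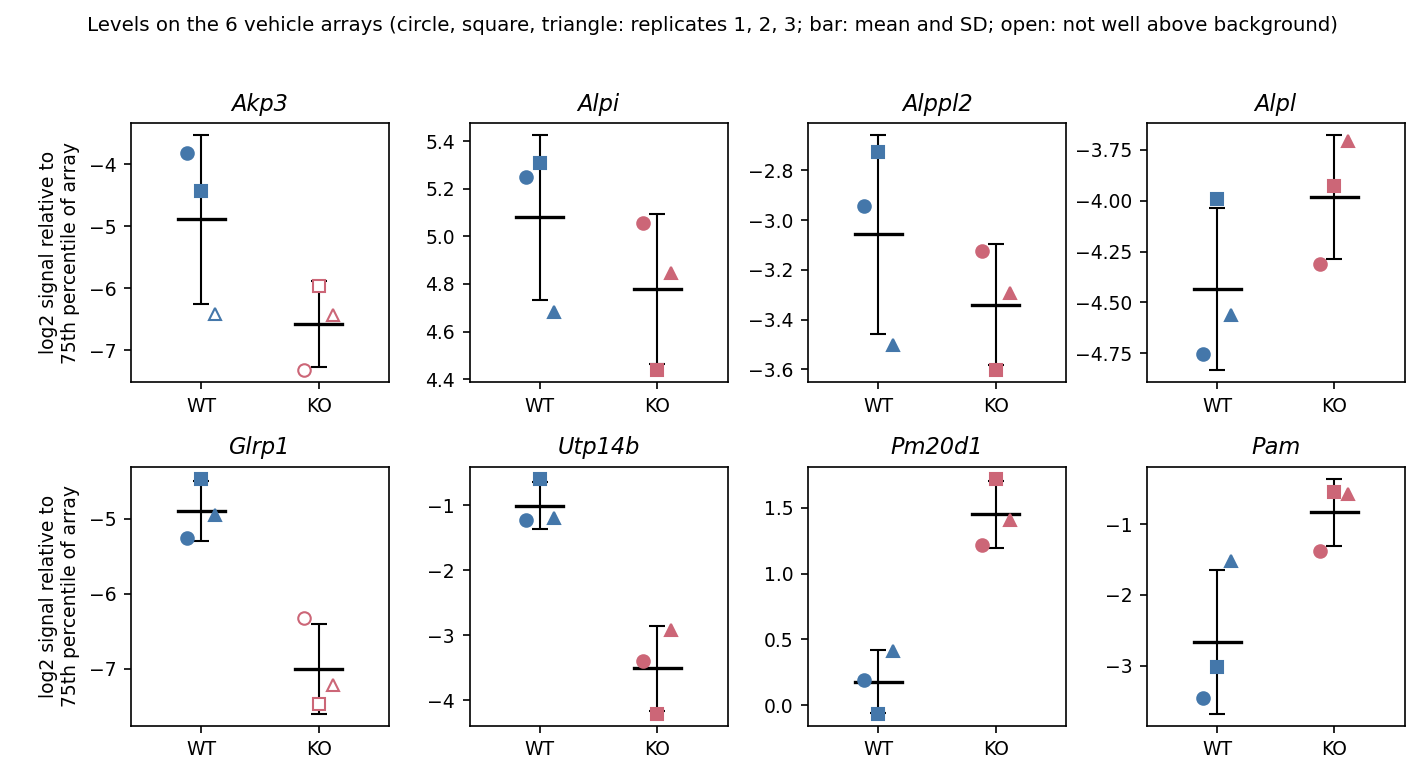
Levels (log2 of the scaled signal, with 0 at the 75th percentile) of the 4 alkaline phosphatases and of 4 other genes of chromosome 1 on the 6 vehicle arrays, with the mean and SD of each genotype; open symbols mark arrays where the probe was not well above background. Akp3 in the array labelled wild-type replicate 3 (-6.42) sits with the knockouts, whereas Glrp1, Utp14b and Pm20d1 separate the genotypes. For Pam the genotypes do not overlap either, but that wild-type array lies close to the knockouts.

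The 6 arrays were alike in brightness, with 75th percentiles of 575 to 711 and 59.99% to 64.7% of spots well above background, and no spot was saturated. Pairs of the 6 arrays correlated at 0.9768 to 0.9922 over all genes tested, and every pair with knockout replicate 3 lay between 0.9768 and 0.9843. The exocrine pancreas list was highest on knockout replicate 3, with mean deviations of 0.86, 0.15 and -0.97 on the wild-type arrays and -1.89, -1.41 and 3.26 on the knockout arrays. Between 0 and 4 of the 24 pancreas markers on the array were not well above background, depending on the array, and their summed linear signal, in units of the 75th percentile, ran from 637.9 to 750.8 in wild type and from 590.3 to 799.0 in knockout. A mean deviation is the average, over the members of a list, of the level minus the gene's own mean over the 6 arrays. Markers of the labelled tissue were present throughout: all 16 enterocyte markers were tested, and Sis, the sucrase of the brush border, read 8.62, 8.50 and 8.65 in wild type and 8.36, 8.21 and 8.37 in knockout. The slides were each scanned together, with wild-type replicate 1 and knockout replicates 1 and 2 on the first and the other 3 on the second. The red blood cell list (-0.90, 0.90 and 0.92 in wild type, -0.70, -2.01 and 1.78 in knockout) and the circadian clock list (-0.51, 0.46 and 0.03 in wild type, -0.33, -0.26 and 0.61 in knockout) split by slide and not by genotype. The part of these in the differences below was not tested.

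No gene of the 27565 tested passed an adjusted p of 0.05 (0%), and the smallest adjusted p was 0.348, shared by 8 genes. At an unadjusted p under 0.05, 3132 genes (11.4%) differed, 1339 of them higher (4.86%) and 1793 lower (6.50%) in the knockouts. The 3 arrays of each genotype did not overlap for 6531 genes (23.7%), 2841 higher (10.3%) and 3690 lower (13.4%). Over all genes 45.5% of the differences lay above 0, their median was -0.03, the median absolute difference 0.21 and the median SE 0.20, and 370 genes (1.34%) differed by over 1 on the log2 scale. An exact permutation test of 3 arrays against 3 cannot give a p below 0.1. Because no gene passed, the genes below are described by their levels, and nothing below is a call. Nothing in the labels says that the samples within a group came from separate cages or litters, and the p-values measure the spread between these arrays. With 1 array left out, 0 to 2 genes passed. The 2 that passed without the array labelled wild-type replicate 3 were Pam and an unnamed probe, and the 2 that passed without knockout replicate 1 were Glrp1 and Cfap100. Leaving out that wild-type array or knockout replicate 2 also moved the 3132 genes at an unadjusted p under 0.05 to 1649 and 1974.

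Among the 10 genes named as lower in the knockouts, the 2 largest differences were on chromosome 1. Glrp1, a protein named for its glutamine repeats, read -5.26, -4.47 and -4.95 in wild type and -6.33, -7.46 and -7.22 in knockout, where it was not well above background on any array. Utp14b, an intronless copy of a gene for ribosomal RNA processing that lies within Acsl3, read -1.23, -0.59 and -1.19 in wild type against -3.40, -4.21 and -2.92. All knockout arrays were under all wild-type arrays for both genes. Their differences were -2.11 (SE 0.31, adjusted p = 0.348) and -2.51 (SE 0.39, adjusted p = 0.348). Glrp1 was at least 1.28-fold lower when bounded by the lowest signal above background, and its difference shrank to -0.40 under another background correction (normexp), to which Akp3 is also sensitive (-0.34).

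The X-linked genes Wdr44, which encodes a partner of the vesicle regulator Rab11, and Radx, which encodes a protein that binds single-stranded DNA at replication forks, were lower on all 3 knockout arrays. Wdr44 read -0.34, -0.24 and -0.41 in wild type and -1.07, -1.16 and -1.12 in knockout, a difference of -0.79 (SE 0.13, adjusted p = 0.348). A second Wdr44 probe differed by -0.30. Radx read -0.97, -1.27 and -1.16 in wild type against -2.15, -2.37 and -1.89, a difference of -1.0 (SE 0.19, adjusted p = 0.423). Neither group overlapped the other for these probes. Kansl1l, a relative of a subunit of a histone acetyltransferase complex, differed by -1.02 (SE 0.23), and its second probe by -0.48. Stxbp4, a syntaxin-binding protein, differed by -1.34 (SE 0.30) and was below background on the knockout arrays, at least 1.45-fold lower. Kpna4, an importin that carries proteins into the nucleus, differed by -0.72 (SE 0.15), Fbxo33, an F-box protein, by -0.70 (SE 0.15), Rc3h1, which drives decay of immune transcripts, by -0.52 (SE 0.12), and Rasa2, which switches off Ras, by -0.52 (SE 0.12). For all 6 of these genes the adjusted p was 0.423 and the arrays of the genotypes did not overlap.

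Among genes higher in the knockouts, Pm20d1, a secreted enzyme that joins fatty acids to amino acids, led by p. It read 0.19, -0.06 and 0.41 in wild type and 1.22, 1.72 and 1.41 in knockout. Ddx59, an RNA helicase, read -3.18, -3.0 and -2.89 in wild type against -2.35, -2.31 and -2.15. Both genes lie on chromosome 1, and all 3 knockout arrays were above all 3 wild-type arrays. The differences were 1.27 (SE 0.21, adjusted p = 0.348) and 0.75 (SE 0.13, adjusted p = 0.348). Pam, the enzyme that amidates the ends of peptide hormones, read -3.46, -3.02 and -1.52 in wild type and -1.38, -0.54 and -0.57 in knockout. The array labelled wild-type replicate 3 was again the one nearest the knockouts, and the difference of 1.84 (SE 0.40, adjusted p = 0.423) became 2.41 (adjusted p = 0.0309) without it. The other Pam probe differed by 0.28, so the 2 probes of this gene disagree.

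Ctse, the protease cathepsin E, read -3.41, -3.26 and -2.33 in wild type and -1.69, -1.03 and -1.30 in knockout, a difference of 1.66 (SE 0.34). Insr, the insulin receptor, read -2.37, -2.21 and -2.34 in wild type against -1.78, -1.73 and -1.31, a difference of 0.70 (SE 0.15). The genotypes did not overlap for either gene, with the array labelled wild-type replicate 3 the highest of its group for Ctse. Top1mt, the mitochondrial topoisomerase, differed by 1.08 (SE 0.21), and Zfp395, a zinc finger protein, by 1.07 (SE 0.19). Nell1, a secreted protein of bone growth, differed by 0.91 (SE 0.20), Fbxo2, which binds sugar-bearing proteins for degradation, by 0.65 (SE 0.14), and Smyd4, of a family of methyltransferases, by 0.65 (SE 0.14). The adjusted p was 0.423 for these 7 genes, and no arrays overlapped.

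**Figure D2:**
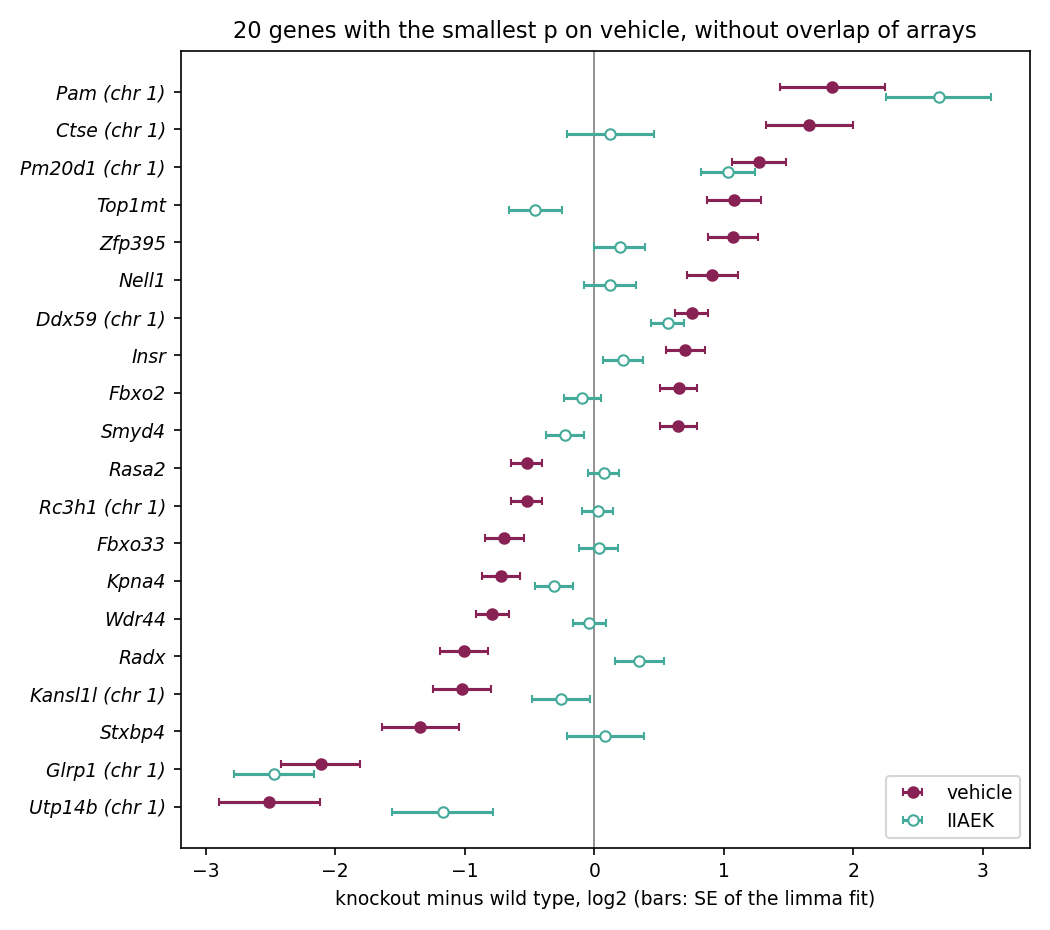
Knockout minus wild-type difference (log2, bars show the SE of the limma fit) on vehicle (filled) and on IIAEK (open) for the 20 genes of smallest p on vehicle without overlap, 10 in each direction. Glrp1, Utp14b, Pam, Pm20d1 and Ddx59 of chromosome 1 lie on the same side in both treatments, while the others lie on both sides of 0 on IIAEK.

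Of these 20 genes 8 lie on chromosome 1, which holds 912 of the 15800 placed genes (5.77%). The IIAEK arrays, whose values do not enter the vehicle difference, gave a second reading of them. All but Rc3h1 of the 8 had the same sign there, and 5 again did not overlap in the same direction. Of the 12 genes on other chromosomes 5 had the same sign and 2 did not overlap in the same direction. The genes were chosen for small p on vehicle, so a smaller difference on IIAEK is no measure of treatment. Over all genes, 2111 (7.66%) had an unadjusted p under 0.05 for genotype on IIAEK, where 2587 (9.39%) did not overlap, and the interaction between genotype and treatment had an unadjusted p under 0.05 for 4157 genes (15.1%). No gene passed in the IIAEK comparison (smallest adjusted p 0.138) or for the interaction (smallest adjusted p 0.197). Across both treatments, 190 genes (0.689%) separated the genotypes without overlap in the same direction, against 322 in opposite directions. In both comparisons 111 genes (0.403%) had an unadjusted p under 0.05 in the same direction against 211 in opposite directions. That order reversed under some settings: it was 262 against 169 with the slide as a block, 195 against 180 without the filter on dim probes, 91 against 34 within the first slide, 717 against 459 within the second and 167 against 154 without knockout replicate 1.

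The 5 genes of chromosome 1 that separated again lie on either side of Akp3. Glrp1 read -5.25, -4.83 and -5.24 in wild type and -7.23, -7.54 and -7.96 in knockout on IIAEK, where it was again above background on 0 of the 3 knockout arrays, at least 1.34-fold lower (adjusted p = 0.138). Utp14b differed there by -1.17 (SE 0.39, adjusted p = 0.648), Pam by 2.66 (SE 0.40, adjusted p = 0.235), Pm20d1 by 1.03 (SE 0.21, adjusted p = 0.486) and Ddx59 by 0.57 (SE 0.13, adjusted p = 0.618). By contrast Ctse differed by 0.13 and Kansl1l by -0.25, on the same chromosome. Off chromosome 1, 2 of the 12 genes also separated again in the same direction. Among the others there, Top1mt had a difference of -0.45 on IIAEK and Radx of 0.35, each opposite in sign to vehicle.

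Genes were then ordered along chromosome 1 by their start in RefSeq and counted from Akp3. In that order Ren2, which differed by 2.30 on vehicle and 2.90 on IIAEK, stood 355 genes before Akp3, and its placement was not checked. Of the 50 genes nearest to Akp3, 25 on either side, 7 (14%) had an unadjusted p under 0.05, as did 16 of the 100 nearest (16%), 30 of the 200 nearest (15%) and 72 of the 400 nearest (18%), against 69 of the other 511 genes of the chromosome (13.5%) and 1922 of 14888 genes (12.9%) on chromosomes 2 to 19 and X. Single chromosomes reached like shares, with 92 of 517 genes (17.8%) on chromosome X and 59 of 391 (15.1%) on chromosome 18. At an unadjusted p under 0.01 the counts were 21 of 400 (5.25%), 11 of 511 (2.15%) and 345 of 14888 (2.32%), beside 2.19% of all genes. Within 200 genes of Akp3, 16 of 400 (4%) separated the genotypes in the same direction on both treatments, against 3 of 511 (0.587%) and 80 of 14888 (0.537%). In opposite directions the counts of these 3 sets were 5, 12 and 173. The windows were chosen with earlier results of these data known, and the shares are a description without a test.

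The 16 genes ran from Kctd18, 169 genes before Akp3, to Chit1, 184 genes after it. Among those lower in the knockouts on both treatments were Acadl, the long-chain acyl-CoA dehydrogenase of mitochondrial fat oxidation, Creb1, the transcription factor that answers cyclic AMP, Utp14b, Ngef, a guanine nucleotide exchange factor, and Glrp1. Acadl read 3.65, 4.28 and 3.94 in wild type and 3.37, 3.09 and 3.48 in knockout, a difference of -0.64 (SE 0.17, adjusted p = 0.423), and differed by -0.58 on IIAEK. Ngef, 6 genes after Akp3, differed by -0.43 (SE 0.16) and -0.50, and Creb1 by -0.49 (SE 0.13) and -0.19. Other Creb1 probes gave -0.325, -0.09 and -0.17 on vehicle and -0.10, -0.18 and -0.06 on IIAEK. Higher on both treatments were Farp2, another exchange factor, at 0.56 (SE 0.13) and 0.34, Pik3c2b, a lipid kinase, at 0.33 and 0.38, Kctd18 at 0.36 and 0.33, and Pam and Pm20d1. A second Pik3c2b probe, above background on all 12 arrays, differed by -0.16 and -0.17, so the probes of this gene disagree. Beyond 200 genes, Ipo9, an importin, differed by 0.71 and 0.73. A second Ipo9 probe, above background on 6 of the 12 arrays, gave 0.76 on vehicle and -0.34 on IIAEK. Acadl, Creb1, Farp2, Pik3c2b, Kctd18 and Ipo9 were picked out after their values had been seen.

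Other close neighbours were named for small p on vehicle, and their IIAEK values are set beside. Mogat1, an acyltransferase of triglyceride synthesis, read -4.17, -4.19 and -3.85 in wild type and -1.42, -2.30 and -2.97 in knockout, a difference of 1.84 (SE 0.47, adjusted p = 0.423), and differed by 1.21 on IIAEK with overlap of the arrays. Acsl3, an acyl-CoA synthetase whose locus holds Utp14b, read 0.16, 0.81 and 0.64 in wild type against -0.32, -0.75 and 0.13, a difference of -0.85 (SE 0.30). The Acsl3 arrays did not overlap on vehicle, while on IIAEK the difference was -0.06. Cab39, a scaffold of the kinase LKB1, differed by -0.49 on vehicle and 0.20 on IIAEK, Agfg1 by -0.40 and -0.0009, and Tm4sf20 by -0.76 and 0.12. Ramp1, which modifies calcitonin-family receptors, differed by -0.61 on vehicle and -0.04 on IIAEK. Other Ramp1 probes gave 0.60 and -0.21 on vehicle, the first of them above background on 1 wild-type and 2 knockout arrays. Ugt1a6a, which shares exons with other genes of its cluster, differed by -0.75 on vehicle and -0.15 on IIAEK. The adjusted p of each of these genes on vehicle was 0.423.

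**Figure D3:**
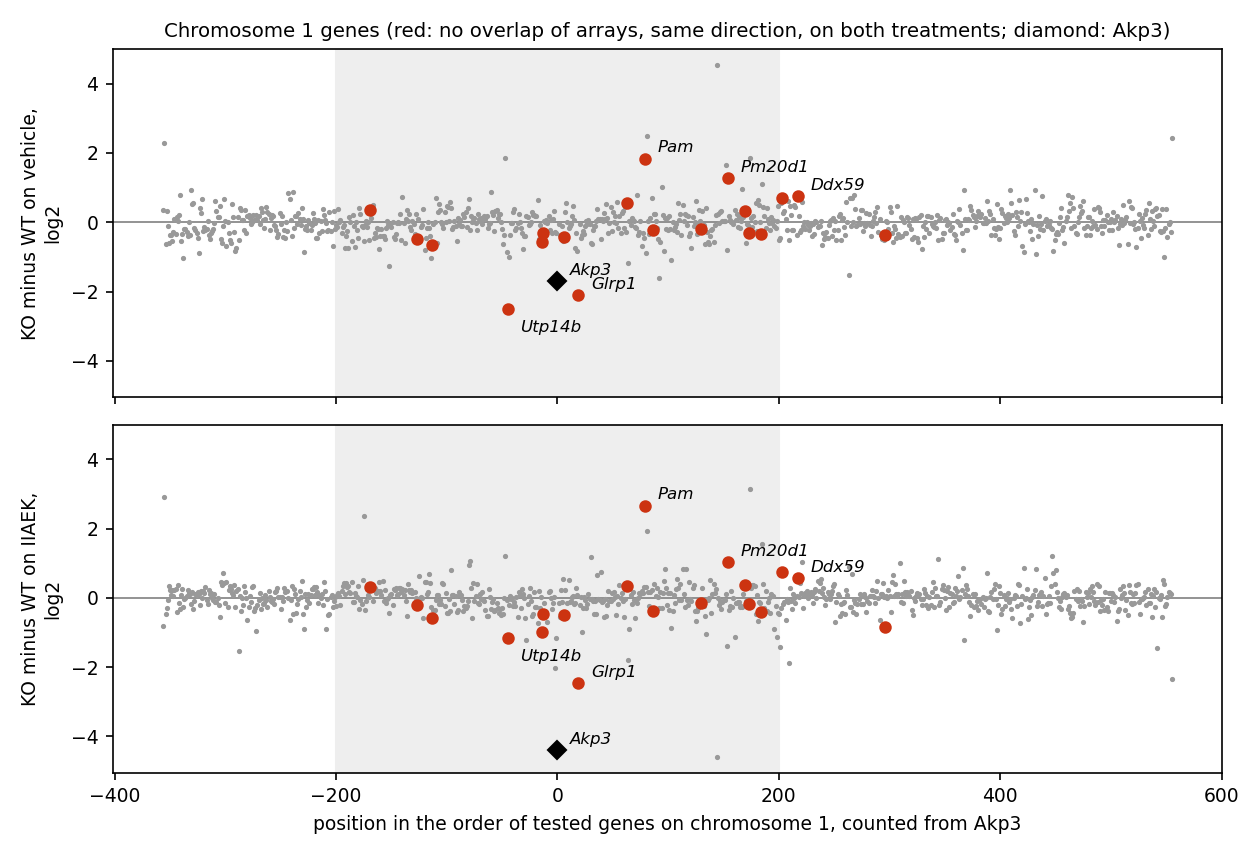
Knockout minus wild-type difference (log2) of 912 genes of chromosome 1 in the order of the chromosome, counted from Akp3, on vehicle (top) and on IIAEK (bottom); red points separate the genotypes without overlap in the same direction on both, and grey shading marks 200 genes to either side. Of the red points 16 lie in the shaded stretch and 3 outside it.

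Functions tied to alkaline phosphatase were taken list by list. Of 20 tested genes of endotoxin sensing (receptors, adaptors and brakes of the lipopolysaccharide pathway), 0 had an unadjusted p under 0.05 (0%, against 11.4% of all genes). The median difference was 0.05, and 2 genes were higher and 1 lower without overlap (10.3% and 13.4% of all genes were). Tlr4, the lipopolysaccharide receptor, differed by -0.47 (SE 0.26) and Lbp, which hands lipopolysaccharide to it, by 0.54 (SE 0.26). Of 22 genes of the NF-kB response 3 were lower at an unadjusted p under 0.05 (13.6%, against 6.50% of all genes) and none higher. Tnfaip3, a brake on NF-kB, read 1.45, 1.18 and 1.10 in wild type and 0.79, 0.67 and 0.85 in knockout, a difference of -0.47 (SE 0.17, adjusted p = 0.423). Ccl2, which attracts monocytes, read -2.81, -2.32 and -1.70 in wild type against -2.92, -2.96 and -4.46, a difference of -1.17 (SE 0.42), and Il18, a cytokine stored in epithelium, differed by -0.47 (SE 0.18). None of these 3 overlapped between the genotypes, and knockout replicate 3 was the lowest array for Ccl2. The list count was 2 to 4 with 1 array left out.

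Of 37 genes of nucleotide hydrolysis and purine salvage, 3 were higher and 4 lower at an unadjusted p under 0.05 (18.9%, against 11.4% of all genes), with a median of -0.01. P2ry2, a receptor for extracellular nucleotides, read -0.44, 0.09 and -0.20 in wild type and -0.54, -1.47 and -1.14 in knockout, a difference of -0.87 (SE 0.27), and Gda, guanine deaminase, 7.56, 7.49 and 7.18 in wild type against 6.91, 6.94 and 6.50, a difference of -0.63 (SE 0.22). All knockout arrays were under all wild-type arrays for both. Entpd4, a nucleotide phosphatase inside the cell, differed by 0.49 (SE 0.18) and Slc29a3, a nucleoside transporter, by 0.67 (SE 0.27). The adjusted p was 0.423 for P2ry2 and 0.430 for Slc29a3, and the count of 7 was 3 without knockout replicate 2, 2 without knockout replicate 3 and 2 without the array labelled wild-type replicate 3.

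In phosphate and calcium handling (16 tested, median -0.02) 2 genes were lower (12.5%, against 6.50% of all genes) and 0 higher. Atp2b1, the calcium pump of the basolateral membrane, read 1.82, 1.96 and 1.77 in wild type and 1.41, 1.19 and 1.28 in knockout, a difference of -0.55 (SE 0.13, adjusted p = 0.423) without overlap, and Trpv6, the apical calcium channel, differed by -0.56 (SE 0.22) with overlap. Of 25 genes of tight junctions and adhesion 1 was lower (4%, against 6.50% of all genes), with a median of -0.06. That count ran over 0 to 5 with 1 array left out. The secreted antimicrobial lectins were lower in the mean with wide spread: Reg3g read 5.91, 7.10 and 6.82 in wild type and 6.10, 5.60 and 3.47 in knockout, and Reg3b 7.68, 8.45 and 8.52 in wild type against 7.47, 7.69 and 6.86. Their differences were -1.55 (SE 0.94) and -0.88 (SE 0.50), the groups overlapped, and knockout replicate 3 was the lowest array for each. No member of the antimicrobial list (13 tested, median -0.24) or of the Paneth cell list (15 tested, 13 below 0, median -0.33) had an unadjusted p under 0.05 (11.4% of all genes did). Without knockout replicate 3 the medians were 0.05 and -0.14.

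Brush border peptidases, the enzymes that finish protein digestion at the cell surface, were lower in the knockouts in 14 of 15 genes tested, with a median of -0.34 against -0.03 over all genes. At an unadjusted p under 0.05, 5 were lower (33.3%, against 6.50% of all genes) and 0 higher. Dpp4, dipeptidyl peptidase 4, read 4.26, 4.74 and 5.03 in wild type and 4.02, 3.43 and 3.62 in knockout. Mme, neprilysin, read 4.20, 4.39 and 4.66 in wild type against 3.89, 3.30 and 3.65. All knockout arrays were under all wild-type arrays for both genes. The differences were -0.99 (SE 0.31, adjusted p = 0.423) and -0.80 (SE 0.34, adjusted p = 0.435), and Mep1b, a subunit of meprin, differed by -0.67 (SE 0.28) with overlap. In mice given IIAEK the list median was 0.53 and Dpp4 differed by 0.75. The count of 5 was 3, 1 and 2 without knockout replicates 1, 2 and 3, and 1 and 1 without wild-type replicates 2 and 3, and it was 2 with the slide as a block, 0 within the first slide and 4 within the second.

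The transporters and sugar enzymes beside them gave a mixed picture. Slc3a1, the heavy chain of the cystine transporter, read 3.50, 3.54 and 3.69 in wild type and 3.34, 2.76 and 2.46 in knockout, a difference of -0.72 (SE 0.23, adjusted p = 0.423). The 20 peptide and amino acid transporters had a median of -0.06, with 1 gene higher and 1 lower (10%, against 11.4% of all genes). Of 16 disaccharidases and sugar transporters 10 lay above 0 and 1 was higher at an unadjusted p under 0.05 (6.25%, against 4.86% of all genes). That gene, G6pc, the glucose-6-phosphatase of glucose release, read 4.45, 3.99 and 3.50 in wild type against 4.56, 4.37 and 6.06, a difference of 1.01 (SE 0.39). Knockout replicate 3 alone stood out for G6pc. Sis differed by -0.28 (SE 0.15) without overlap. The 16 enterocyte markers had a median of -0.05, and 1 was lower (6.25%, against 6.50% of all genes). That was Krt20, a keratin of mature villus cells, which read 8.14, 8.25 and 8.22 in wild type and 8.06, 7.51 and 7.77 in knockout and differed by -0.42 (SE 0.15, adjusted p = 0.423).

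Lipid genes differed in no single direction. In chylomicron assembly and triglyceride synthesis 17 of 21 genes lay below 0 (median -0.08). At an unadjusted p under 0.05, 2 were lower and 1 higher (14.3%, against 11.4% of all genes). Gpat3, an acyltransferase of triglyceride synthesis, read 4.29, 4.70 and 4.17 in wild type and 3.93, 3.72 and 3.88 in knockout, and Sar1b, the GTPase that loads chylomicrons into transport vesicles, 4.71, 4.53 and 4.78 in wild type against 4.22, 3.62 and 4.11. Pnpla2, adipose triglyceride lipase, went the other way, at 3.27, 3.20 and 2.77 in wild type against 3.79, 3.52 and 4.22. None of the 3 overlapped between the genotypes. Their differences were -0.55 (SE 0.16), -0.69 (SE 0.23) and 0.76 (SE 0.21), each with an adjusted p of 0.423.

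Fatty acid synthesis and desaturation genes lay above 0 in 13 of 15 cases (median 0.25). At an unadjusted p under 0.05, 1 was higher (6.67%, against 4.86% of all genes). That was Acly, which makes cytosolic acetyl-CoA, with 1.92, 1.85 and 1.62 in wild type and 2.19, 2.31 and 2.31 in knockout, a difference of 0.47 (SE 0.20, adjusted p = 0.435). Fasn, fatty acid synthase, read 1.49, 1.13 and 0.62 in wild type against 2.65, 2.36 and 1.75, a difference of 1.18 (SE 0.55, adjusted p = 0.446) without overlap. Among genes of fatty acid uptake and PPARA targets (29 tested, median -0.06) 3 were lower and 1 higher (13.8%, against 11.4% of all genes). Acsl5, an acyl-CoA synthetase of enterocytes, differed by -0.55 (SE 0.18) and Acsl1, another synthetase, by 0.60 (SE 0.23). Cholesterol synthesis (24 tested, median 0.17) had 1 gene higher and 2 lower (12.5%, against 11.4% of all genes), among them Idi1, isopentenyl diphosphate isomerase, at -0.65 (SE 0.22). Sterol absorption and efflux (18 tested, median 0.10) had 1 lower (5.56%, against 6.50% of all genes), the cholesterol exporter Abca1 at -0.45 (SE 0.20). A second Abca1 probe, above background on all 12 arrays, gave 0.10. With 1 array left out, the counts at an unadjusted p under 0.05 ran over 2 to 6 for chylomicrons, 0 to 3 for fatty acid synthesis, 3 to 4 for fatty acid uptake, 0 to 2 for cholesterol synthesis and 0 to 2 for sterol transport.

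Slc51b, the beta subunit of the basolateral bile acid exporter, was the clearest of the bile acid genes. It read 3.78, 4.03 and 4.17 in wild type and 3.36, 2.92 and 3.40 in knockout, a difference of -0.76 (SE 0.18, adjusted p = 0.423) without overlap, and 0.11 on IIAEK. The other 9 genes of ileal bile acid transport and FXR had an unadjusted p above 0.05. Genes of xenobiotic metabolism and efflux were mostly lower: 28 of 36 lay below 0, and 13 did not overlap in that direction (13.4% of all genes did so). At an unadjusted p under 0.05, 4 were lower (11.1%, against 6.50% of all genes) and 0 higher, and the median was -0.40. Ahr, the aryl hydrocarbon receptor, read 1.16, 1.06 and 0.87 in wild type against 0.81, 0.63 and 0.43, a difference of -0.41 (SE 0.14). Ugt2b34, a glucuronosyltransferase, read 6.62, 6.26 and 6.47 in wild type against 6.04, 5.87 and 5.59, a difference of -0.62 (SE 0.23), and Sult1b1, a sulfotransferase, 6.92, 6.58 and 6.76 in wild type against 6.54, 6.13 and 5.83, a difference of -0.59 (SE 0.24). All 3 separated the genotypes, with an adjusted p of 0.423 for Ahr and 0.432 for Sult1b1. The 4 genes became 2 without knockout replicate 2, 2 without wild-type replicate 1 and 2 without the array labelled wild-type replicate 3, while the median stayed between -0.46 and -0.29, and on IIAEK it was 0.08.

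Heat shock and chaperone genes were lower in 20 of 30 cases, with 5 lower and 2 higher at an unadjusted p under 0.05 (23.3%, against 11.4% of all genes) and a median of -0.16. Hsp90aa1, the inducible cytosolic HSP90, read 4.79, 5.04 and 4.84 in wild type and 4.24, 4.49 and 4.21 in knockout, a difference of -0.57 (SE 0.14). Dnajb9, a co-chaperone of the endoplasmic reticulum, read 2.25, 2.36 and 2.33 in wild type against 1.55, 1.26 and 1.06, a difference of -1.02 (SE 0.26), and Dnaja1, a cytosolic co-chaperone, 5.61, 5.69 and 5.68 in wild type against 5.17, 5.08 and 4.58, a difference of -0.72 (SE 0.19). The wild-type arrays were tight and all above the knockout arrays for these genes, each with an adjusted p of 0.423. The 7 genes became 4 without knockout replicate 3 and 4 without wild-type replicate 2, and were 2 within the first slide and 15 within the second. Interferon-stimulated genes had 31 of 34 members below 0 and a median of -0.31. At an unadjusted p under 0.05, 1 was lower (2.94%, against 6.50% of all genes), Ifih1, a sensor of double-stranded RNA, at -0.46 (SE 0.17). Mean deviations of that list were 0.16, 0.04 and 0.26 in wild type and 0.43, 0.28 and -1.17 in knockout, so knockout replicate 3 alone was low, and without it the median was 0.18.

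**Figure D4:**
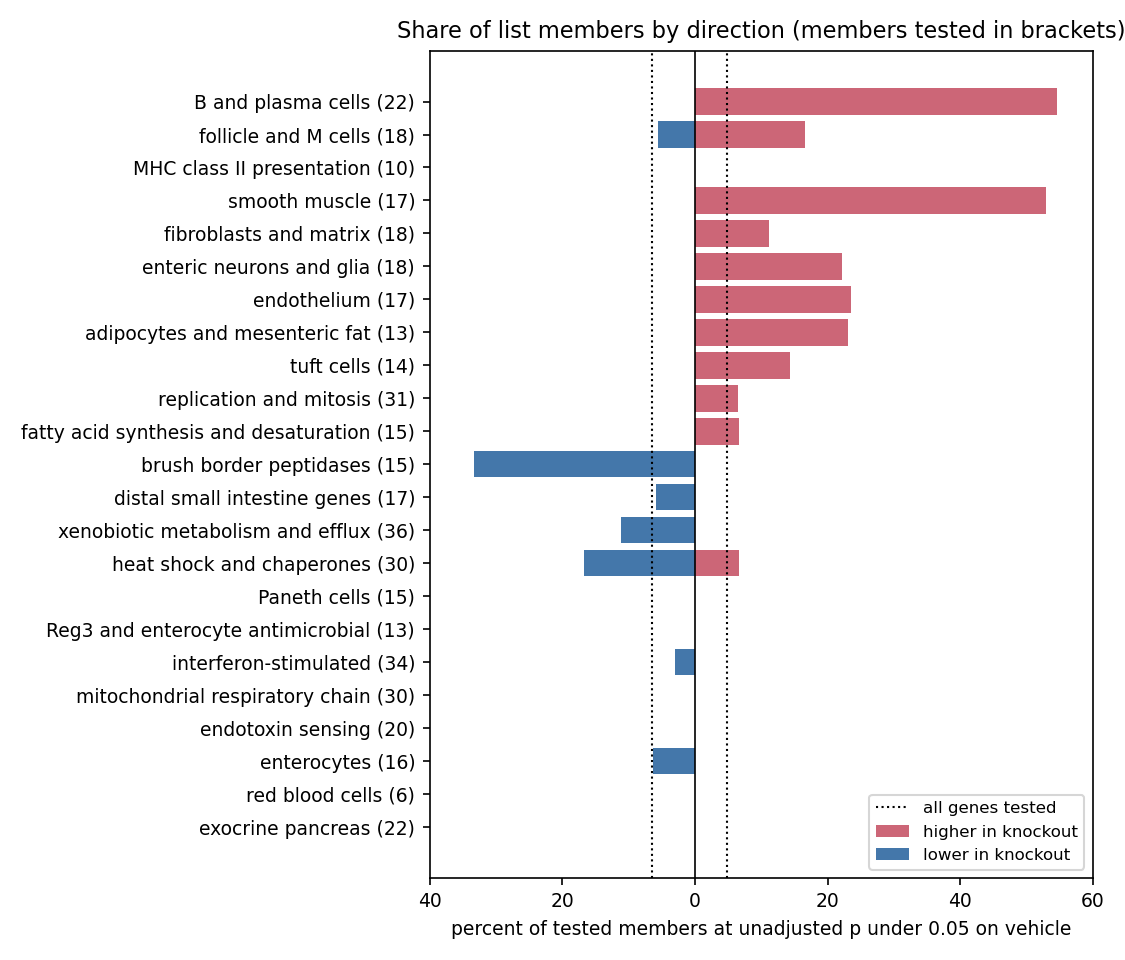
Percent of the tested members of each list that had an unadjusted p under 0.05 on vehicle, to the right where higher and to the left where lower in the knockouts; dotted lines mark the shares over all genes tested (4.86% and 6.50%). B and plasma cells (54.5% higher), smooth muscle (52.9% higher) and brush border peptidases (33.3% lower) reach farthest.

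B and plasma cell markers were higher in the knockouts in 18 of 22 genes tested, with a median of 1.02. At an unadjusted p under 0.05, 12 were higher (54.5%, against 4.86% of all genes) and 0 lower. Of the 22 genes, 7 were higher without overlap (10.3% of all genes were). Vpreb3, a B cell surrogate light chain relative, read -0.84, -0.14 and 0.53 in wild type and 1.08, 1.13 and 1.13 in knockout, and Pou2af1, a coactivator of immunoglobulin genes, 0.61, 0.36 and 0.85 in wild type against 1.26, 1.30 and 1.34. Spib, a transcription factor of B cells and M cells, read -1.28, -1.40 and -0.29 in wild type against 0.07, 0.44 and 0.23. For all 3 genes the array labelled wild-type replicate 3 was the highest of its group and lay nearest to the knockouts. The differences were 1.26 (SE 0.29, adjusted p = 0.423), 0.70 (SE 0.20, adjusted p = 0.423) and 1.24 (SE 0.41, adjusted p = 0.423), and Cd79a, a chain of the B cell receptor, differed by 1.11 (SE 0.36) with overlap.

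Over the whole B and plasma cell list the mean deviations were -1.15, -1.18 and 0.53 on the wild-type arrays and 0.53, 0.85 and 0.43 on the knockout arrays. Wild-type replicates 1 and 2 were therefore low, and the array labelled wild-type replicate 3 read as high as the knockouts. The count of 12 was 15 without that array, 4 and 5 without wild-type replicates 1 and 2, and 4 without knockout replicate 2, and the median stayed between 0.77 and 1.30. It was 1.46 within the first slide and 0.76 within the second. The summed linear signal of the 23 members on the array, in which bright genes weigh most, did not follow the median: it ran from 197.4 to 249.7 in wild type and from 145.5 to 229.7 in knockout, with 1 to 3 members not well above background. On IIAEK the median had the opposite sign, -0.90. In bulk tissue more cells of a type and more RNA per cell cannot be told apart.

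Markers of lymphoid follicles and of M cells, the epithelial cells over them, had mean deviations of -0.39, -0.52 and 0.28 in wild type and 0.15, 0.37 and 0.11 in knockout. Of 18 tested, 3 were higher and 1 lower (22.2%, against 11.4% of all genes), with a median of 0.32. The summed linear signal overlapped and was lower on average in the knockouts, from 142.5 to 180.2 in wild type and from 119.6 to 147.6 in knockout. Clu, clusterin, which follicular dendritic cells make, read 0.43, -0.29 and 2.38 in wild type against 2.52, 3.24 and 2.86, a difference of 2.03 (SE 0.72), and Anxa5, annexin A5, differed by 0.48 (SE 0.21). The array labelled wild-type replicate 3 again lay just under the knockouts for Clu. T cell and intraepithelial lymphocyte markers (27 tested) had a median of 0.06 with 0 higher and 1 lower (3.7%, against 6.50% of all genes), the chemokine Xcl1 at -0.77 (SE 0.34). Macrophage and dendritic cell markers (21 tested) had a median of 0.08 with 0 in either direction (0%, against 11.4% of all genes). The T cell count of 1 was 5 without wild-type replicate 1, where the median was -0.12, and 8 within the first slide, where it was 0.42. The part of follicle content in the differences of B cell genes was not tested.

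Smooth muscle genes were higher in 16 of 17 cases, 9 of them (52.9%, against 4.86% of all genes) at an unadjusted p under 0.05 and all 9 higher, with a median of 0.65. Acta2, smooth muscle actin, read 4.05, 3.09 and 3.46 in wild type and 4.64, 4.38 and 4.30 in knockout. Des, desmin, read -0.96, -1.31 and -1.12 in wild type against -0.11, -0.14 and -0.50, and Smtn, smoothelin, 1.37, 0.55 and 0.97 in wild type against 1.87, 1.80 and 1.50. Wild-type replicate 2 was the lowest array and all knockout arrays were above all wild-type arrays for each. The differences were 0.90 (SE 0.30), 0.88 (SE 0.30) and 0.76 (SE 0.27), with an adjusted p of 0.423 for each. Other Acta2 probes, above background on all 12 arrays, gave 0.30 and 0.72. Mean deviations of the list were 0.01, -0.54 and -0.24 in wild type against 0.49, 0.24 and 0.03 in knockout, its summed linear signal ran from 82.3 to 129.8 in wild type and from 134.1 to 173.9 in knockout, and the count of 9 became 2 and 5 without wild-type replicates 2 and 3 and 3 without knockout replicate 1.

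Other markers of the gut wall had medians above 0. Enteric neuron and glia markers had 4 of 18 higher (22.2%, against 4.86% of all genes) and 0 lower (median 0.35). Uchl1, a ubiquitin hydrolase of neurons, read -0.96, -0.88 and -0.65 in wild type and 0.04, 0.31 and 0.08 in knockout, a difference of 0.97 (SE 0.36), and Stmn2, a microtubule regulator of axons, -0.30, -0.61 and -0.14 in wild type against 0.11, 0.10 and 0.18, a difference of 0.48 (SE 0.15). Both separated the genotypes. Endothelial markers had 4 of 17 higher (23.5%) and 0 lower (median 0.33), among them Tie1, an endothelial receptor, at 0.67 (SE 0.23) and Rasip1, a Ras partner of vessels, at 0.81 (SE 0.27). Fibroblast and matrix genes had 2 of 18 higher (11.1%) and 0 lower (median 0.29), with the collagen chain Col6a1 at 0.71 (SE 0.27). Markers of adipocytes and mesenteric fat had 3 of 13 higher (23.1%) and 0 lower (median 0.56), led by Plin4, a lipid droplet coat protein, which read -1.92, -2.80 and -2.20 in wild type against -0.41, -0.79 and -1.57, a difference of 1.38 (SE 0.44). The fat list was lowest on wild-type replicate 2 and highest on knockout replicate 1. Summed linear signals overlapped between the genotypes for neurons and glia (40.6 to 49.3 in wild type, 34.3 to 51.8 in knockout), fibroblasts (72.0 to 118.4 against 80.4 to 119.7) and fat (38.35 to 46.8 against 40.6 to 70.35). For endothelium they did not overlap, at 9.62 to 11.3 in wild type and 12.7 to 15.3 in knockout. With 1 array left out the counts ran over 1 to 5 for neurons, 1 to 4 for endothelium, 0 to 8 for fibroblasts and 2 to 7 for fat. On IIAEK the medians were -0.28 for smooth muscle, -0.15 for neurons, -0.30 for endothelium and -0.20 for fibroblasts, all below 0. The part of the wall in each tissue piece was not measured, and its share in these differences was not tested.

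Secretory and dividing epithelium was described by 5 lists. Tuft cell markers had 12 of 14 genes above 0, 4 of them higher without overlap (10.3% of all genes were), and 2 higher at an unadjusted p under 0.05 (14.3%, against 4.86%, median 0.33), with Avil, an actin-binding protein of these chemosensory cells, at -0.63, -0.80 and -0.92 in wild type and -0.23, -0.03 and 0.22 in knockout, a difference of 0.77 (SE 0.28), and Alox5ap, which serves leukotriene synthesis, at 0.65 (SE 0.26). Both separated the genotypes. Goblet cells (16 tested, median -0.15) had 1 lower (6.25%, against 6.50% of all genes), Agr2, a folding enzyme for mucins, at -0.50 (SE 0.16). Enteroendocrine cells (24 tested, median -0.12) had 1 lower (4.17%, against 6.50%), Scg2, a granin of hormone granules, at -0.37 (SE 0.16). Stem cell markers (16 tested, median 0.12) had 1 higher (6.25%, against 4.86%). Replication and mitosis genes (31 tested, 23 above 0, 8 higher without overlap, median 0.25) had 2 higher (6.45%, against 4.86%). These were Tk1, thymidine kinase, at 0.61 (SE 0.23) and Rrm2, a subunit of ribonucleotide reductase, at 1.07 (SE 0.48). Rrm2 read 0.99, 1.03 and 0.39 in wild type and 1.24, 1.22 and 3.16 in knockout. Of 30 genes of the mitochondrial respiratory chain 0 had an unadjusted p under 0.05 (0%, against 11.4% of all genes, median -0.06). With 1 array left out the counts ran over 0 to 3 for tuft cells, 1 to 3 for goblet cells, 0 to 3 for enteroendocrine cells and 0 to 3 for replication.

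**Figure D5:**
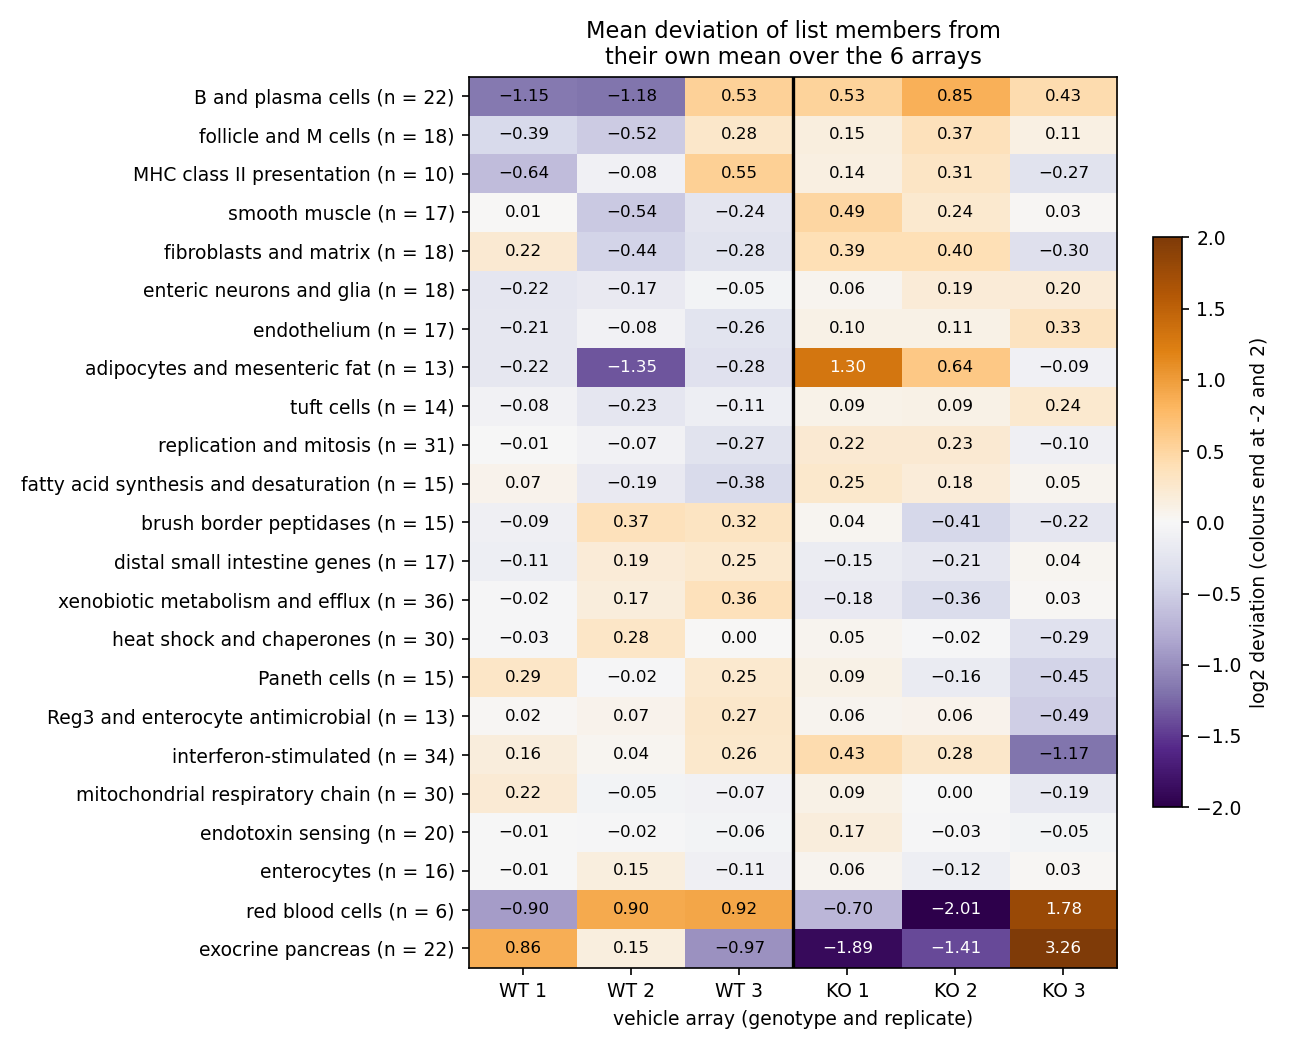
Mean deviation of the tested members of each list from their own mean over the 6 vehicle arrays (log2), by array; colours end at -2 and 2 and the cell gives the value. The array labelled wild-type replicate 3 (WT 3) reads 0.53 for B and plasma cells, as on the knockouts, and knockout replicate 3 (KO 3) stands apart at 3.26 for the exocrine pancreas and -1.17 for interferon-stimulated genes.

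A few probes away from chromosome 1, or with no gene name in the files, gave large separations on both treatments and were picked out after their values had been seen. Cfap100, a gene of motile cilia on chromosome 6, read -3.77, -3.17 and -4.50 in wild type and -4.53, -7.13 and -6.87 in knockout. It was well above background on all 3 wild-type arrays but not on knockout replicates 2 and 3, and on 7 of the 12 arrays of the series. Background therefore limits the size of its difference. The knockout replicate 1 was level with the lowest wild-type array, although the genotypes did not overlap. The difference was -2.36 (SE 0.57, adjusted p = 0.423), it was -3.19 without that array, and it was -3.12 on IIAEK. The unnamed probe A_66_P123057 read -2.54, -2.26 and -2.02 in wild type against 0.58, 0.31 and 0.26, a difference of 2.66 (SE 0.60, adjusted p = 0.423), and 2.88 on IIAEK. With only the 6 vehicle arrays in the fit its adjusted p was 0.0335. The unnamed probe A_55_P1953082 read -4.63, -4.95 and -1.70 in wild type against -1.40, -0.83 and -0.33, a difference of 2.91 (SE 0.68, adjusted p = 0.423). The array labelled wild-type replicate 3 was close to the knockouts for this probe as it was for Akp3 and Pam, whereas for Glrp1, Utp14b, Pm20d1 and A_66_P123057 it read with the other wild-type arrays. Without it, A_55_P1953082 differed by 3.94 (adjusted p = 0.0107).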

How the data were processed

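Total RNA from the jejunum was labelled with Cy3 and hybridised to 1-colour Agilent arrays, per the labels. Per the file headers, Feature Extraction 10.7.3.1 gave each spot a processed signal, an intensity corrected for background but not scaled between arrays. The deposited value table holds log2 values; its scaling and centring are not stated, and its arrays correlated with the scaled scanner values at 0.9997 or more. Their number and the signal over background limit precision.

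Here log2 of the processed signal minus the 75th percentile of its array was used. Non-uniform outlier spots were dropped, spots of a probe averaged, and the brightest probe taken for each symbol (56605 probes, of which 32994 carry one of 22911 symbols). Genes were tested if some group of the 4 had them well above background on each of its 3 arrays (27565, of which 11753 had no symbol). limma 3.58.1 in R 4.3.3 fitted 4 group means over 12 arrays (8 residual and 3.37 prior degrees of freedom), with Benjamini-Hochberg adjustment. In the fit, the IIAEK arrays add only to the spread of the vehicle contrast. They also entered the choice of the brightest probe and the filter. Akp3 passed the filter only through the wild-type IIAEK arrays, and Glrp1 and Stxbp4 only through wild-type arrays. Of the vehicle groups, Cfap100 met the filter only in wild type. For a gene below background on every array of a group, a fold of at least a given size was set against the lowest signal among probes well above background. The other group entered at its measured mean, which for Akp3 on vehicle includes a wild-type array below background. Gene order and promoters came from RefSeq (GRCm38.p6). The scripts were tested on simulated data.

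Named genes were the alkaline phosphatases, 10 genes in each direction of smallest p without overlap (none passed), up to 4 members of smallest p in each list, and 10 of the 100 nearest neighbours of Akp3; others are said to be chosen after their values were seen, and a member of 1 list is not reported here. Members and lists were chosen with earlier results of these data known. Alternatives covered scaling, background correction, the deposited table, the filter, the probe of a gene, the arrays fitted, the slide, a replicate block and leaving out each array. Replicate numbers did not pair the samples.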

Additional observations from a re-analysis of the deposited data

How the results depend on the processing

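The count of 0 genes passing on vehicle held under every scaling, background correction, filter and block tried. It was 1 with only the 6 vehicle arrays, 28 within the second slide (which rests on knockout replicate 3 alone) and 0 to 2 with 1 array left out. Akp3 did not pass under any alternative and ranged from -2.83 within the first slide to -0.34 under normexp, and from -2.45 to -1.15 with 1 array left out. It has no value when a probe must be above background on all 6 vehicle arrays. Counts over the gene lists at an unadjusted p under 0.05 (115) were 205 within the second slide and 70 to 121 with 1 array left out, lowest without knockout replicate 2 and then without wild-type replicate 2 (76). Of the 200 genes nearest Akp3 30 (15%) had such a p, beside 11.4% of all genes, and the alternatives gave 21 to 43. The 111 genes found on both treatments in the same direction were 195 without the filter, 262 with the slide as a block, 717 within the second slide and 83 to 167 with 1 array left out, and they have no value with only the 6 vehicle arrays. Those in opposite directions (211) were 180, 169, 459 and 106 to 196 there, so the order of the counts reverses in some. With the replicate block, 0 genes passed and the counts were 113, 34 and 142. Deviations of arrays with the same number correlated at 0.337, -0.163 and 0.016, so the numbers are no pairing. Signal over background limits Akp3, Glrp1 and Stxbp4, which the knockout arrays did not measure. It also limits Cfap100, which was well above background on 1 of the 3 knockout vehicle arrays.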
